A study of Mus musculus with 8 samples.

Results

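The coat and the lipases of lipid droplets were followed through 10 genes in the left ventricle of mice. They are Plin2, Plin3, Plin4, Plin5, Cidea, Pnpla2, Abhd5, G0s2, Lipe and Hilpda, named from their known roles and matched by symbol. The choice was made with earlier results of these data known. All 10 had a row among the 41096 genes of the count table and passed the filter on low counts that left 14875 genes. The HFD-LNAME group held 4 libraries from mice that ate fat-rich food with 0.5% L-NAME for 9 weeks, starting at 12 weeks old. L-NAME blocks nitric oxide synthesis. The Normal Chow group held 4 libraries from mice of that age kept on chow for the same time. The labels write the strain of every library as C57BL/5NJ and give no sex, batch or Nnt genotype. They give each library a number of its own without saying that it marks a mouse, so p-values measure the spread between these samples, which may be technical. The series design names cohorts with wild-type or deleted Nnt, the mitochondrial transhydrogenase, and both sexes.

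Cardiomyocytes burn fatty acids and keep a small, fast-moving store of them as triglyceride in lipid droplets. Perilipins coat the droplet and set how far lipases reach the fat inside. Pnpla2 codes for ATGL, which removes the first fatty acid from triglyceride, ABHD5 activates it, G0S2 and HILPDA inhibit it, and Lipe codes for hormone-sensitive lipase, which takes the next step. Many of these genes respond to PPARs, nuclear receptors that bind fatty acids, and several of them are also abundant in adipocytes. In whole ventricle, RNA from fat at the surface of the heart and RNA of cardiomyocytes are therefore counted together.

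Total counts ranged from 31522074 to 52053633 per library, and every HFD-LNAME total lay below every Normal Chow total. The 9 measured of 10 cardiomyocyte markers summed to 78616 to 101618 CPM (counts scaled to a common library total with TMM factors) in HFD-LNAME libraries and to 92154 to 107480 CPM in Normal Chow libraries, and 0 of the 9 had no count in any library. The atrial marker Myl7 was above 200 CPM in HFD-LNAME 2, 3 and 4 and in Normal Chow 1 and 3, and between 0.714 and 10.2 CPM in HFD-LNAME 1 and Normal Chow 2 and 4. The 12 adipocyte markers, none of them among the 10 genes, summed to 49.1 CPM in HFD-LNAME 2, 34.7 CPM in HFD-LNAME 3, 8.86 CPM in HFD-LNAME 1 and 7.27 CPM in HFD-LNAME 4. In Normal Chow 1, 2, 3 and 4 the sum was 6.92, 1.45, 2.15 and 1.21 CPM. On the log2(sum + 1) scale the HFD-LNAME mean was higher by 2.52 (4.29 ± 1.30 against 1.77 ± 0.84, SD, n = 4 each, two-sided exact permutation p = 0.0286, the smallest that 4 against 4 allows). Without HFD-LNAME 2, without HFD-LNAME 3 or without Normal Chow 2, 3 or 4 the exact permutation p was 0.0571. Between 0 and 5 of the 12 markers had no count in an HFD-LNAME library, and between 4 and 7 in a Normal Chow library. Ucp1, the uncoupling protein of brown fat, was at 11.5 and 5.03 CPM in HFD-LNAME 2 and 3 and at 0 in HFD-LNAME 1 and 4. Fewer cells of a type and less RNA per cell cannot be told apart in such bulk samples.

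Per exon length, the 10 genes spanned a wide range. Pnpla2 stood highest, with a mean of 167 CPM per kb of exon in HFD-LNAME libraries and 130 CPM per kb in Normal Chow libraries, and its lowest library (107) lay above the highest of Plin5 (105). Plin5 (90.0 and 74.6 CPM per kb) and Plin3 (56.0 and 62.1) came next and overlapped each other across libraries. G0s2 (46.4 and 35.8), Cidea (36.8 and 26.9), Plin4 (30.8 and 19.3) and Plin2 (19.9 and 20.0) followed, each overlapping its neighbour in that order. Lipe (12.3 and 8.45) lay below Plin2 in every library and overlapped Abhd5 (8.84 and 9.07). Hilpda was lowest, at 3.04 and 2.31 CPM per kb, with no overlap with Abhd5. For comparison, Plin1, the coat protein of adipocyte droplets, ranged from 0.0954 to 2.59 CPM per kb and the cardiomyocyte calcium channel gene Ryr2 from 80.5 to 107 CPM per kb over the 8 libraries. Exon lengths are unions of GENCODE M21 exons, so levels of genes with exons unused in the heart may be understated.

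**Figure D1:**
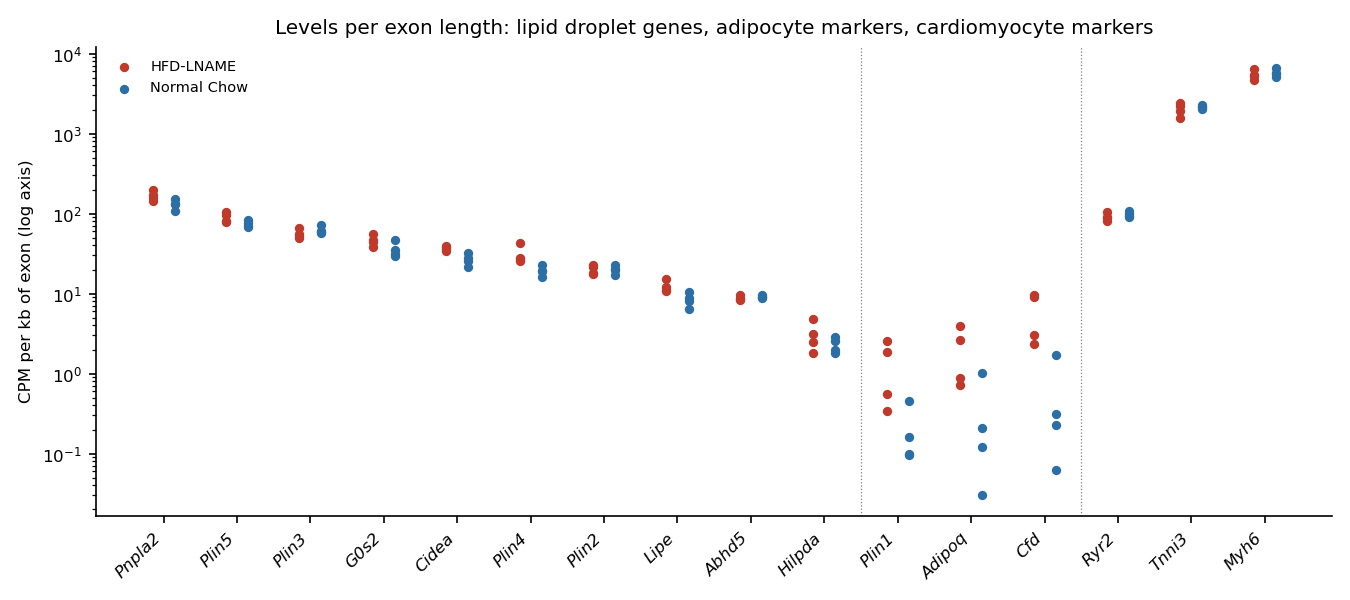
CPM per kb of exon on a log axis for the 10 lipid droplet genes, 3 adipocyte markers and 3 cardiomyocyte markers, 1 point per library, HFD-LNAME left and Normal Chow right within a gene. Among the droplet genes Abhd5 spans 8.35 to 9.56, Plin4 16.3 to 43.1 and Hilpda 1.78 to 4.77, against 0.0954 to 2.59 for Plin1.

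Plin4 and Plin5 are neighbouring genes on the same strand of chromosome 17, and the stretches before their starts are shown beside those of Plin2, whose log2 fold change was nearest to 0, and of Pnpla2 and Abhd5, a lipase and its activator. The 250 bases before the first-listed RefSeq start are given 5′ to 3′ on the strand of the gene (RefSeq, GRCm38.p6, the C57BL/6J reference). Capitals mark the letters AGGTCA, the recognition hexamer of many nuclear receptors, CCAAT and GGGCGG, a GC box, each on either strand.
Plin4, chr17:56109783-56110032, minus strand: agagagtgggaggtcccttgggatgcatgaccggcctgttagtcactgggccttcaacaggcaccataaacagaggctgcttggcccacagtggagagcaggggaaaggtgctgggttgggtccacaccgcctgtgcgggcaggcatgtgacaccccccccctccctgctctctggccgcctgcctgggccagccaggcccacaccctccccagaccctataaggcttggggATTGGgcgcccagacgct
Plin5, chr17:56117549-56117798, minus strand: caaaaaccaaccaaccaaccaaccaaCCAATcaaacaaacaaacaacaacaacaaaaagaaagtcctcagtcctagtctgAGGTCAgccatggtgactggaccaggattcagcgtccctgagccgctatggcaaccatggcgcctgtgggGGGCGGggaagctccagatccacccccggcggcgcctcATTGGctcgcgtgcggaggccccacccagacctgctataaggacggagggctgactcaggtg
Plin2, chr4:86670060-86670309, minus strand: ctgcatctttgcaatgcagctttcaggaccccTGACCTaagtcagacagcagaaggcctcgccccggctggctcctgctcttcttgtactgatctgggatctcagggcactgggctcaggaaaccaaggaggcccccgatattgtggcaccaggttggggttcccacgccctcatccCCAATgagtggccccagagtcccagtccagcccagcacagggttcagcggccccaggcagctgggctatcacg
Pnpla2, chr7:141454938-141455187, plus strand: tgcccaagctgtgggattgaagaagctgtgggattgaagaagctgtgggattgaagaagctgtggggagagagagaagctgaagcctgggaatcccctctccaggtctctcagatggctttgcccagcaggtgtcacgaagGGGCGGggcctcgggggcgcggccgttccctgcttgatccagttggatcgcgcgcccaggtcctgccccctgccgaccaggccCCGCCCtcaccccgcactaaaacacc
Abhd5, chr9:122351366-122351615, plus strand: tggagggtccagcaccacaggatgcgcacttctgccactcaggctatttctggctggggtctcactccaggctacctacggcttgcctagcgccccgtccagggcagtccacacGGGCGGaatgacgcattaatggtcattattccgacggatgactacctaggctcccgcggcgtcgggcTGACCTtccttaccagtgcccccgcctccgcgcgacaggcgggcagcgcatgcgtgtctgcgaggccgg
AGGTCA was found from position -218 in Plin2, -170 in Plin5 and -69 in Abhd5, counted back from the start, and not in this window of Plin4 or Pnpla2. It occurs in 14.0% of 32851 such windows of all genes and in 3 of the 12 windows of the 9 droplet genes included. No window of Cidea was counted, because a filter on chromosome was applied to the droplet genes and not to the windows of all genes. The paired form of AGGTCA is 2 copies in a row with 1 base between them, which PPARs bind with their partner RXR. It was in none of the 12 windows and in 0.0335% of all. Only exact letters within 250 bases were searched. At so low a share 12 windows are too few to show whether these genes have such sites. CCAAT was in 4 and GGGCGG in 8 of the 12, against 33.8% and 32.7% of all windows. Hilpda, Lipe and Plin5 had 2 windows each, those of Hilpda overlap, and both of Plin5 held GGGCGG. The 12 are therefore not independent, and these shares are a description only. ACGTG, the core letters of hypoxia response elements, was in 2 of the 12, among them the second listed start of Hilpda, against 16.6% of all.

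The comparison of HFD-LNAME with Normal Chow asked whether transcripts of droplet coats and lipases differed after 9 weeks of the diet. With edgeR's quasi-likelihood test over all 14875 genes, 0 of the 10 passed an adjusted p of 0.05, against 0.0134% of all genes called (0.00672% called higher). At an unadjusted p under 0.05 there were 6 (Plin4, Plin5, Cidea, Pnpla2, G0s2 and Lipe), all higher in HFD-LNAME libraries. Of all genes 9.56% had such a p, and 5.02% had it while higher in HFD-LNAME. In Plin4, Lipe and Cidea all 4 HFD-LNAME libraries lay above all 4 Normal Chow libraries, as did 2.74% of all genes, and in 5.98% the groups did not overlap in either direction. The median log2 fold change of the 10 was 0.37, against 0.0024 over all genes tested, with 7 above 0 and 3 below. Because the 10 were chosen with earlier results of these data known, their shares beside those of all genes are a description only. DESeq2 called 2 of the 10, Plin4 and Lipe, against 0.963% of the genes to which it gave an adjusted p, and limma-voom called 0 of the 10 and 0% of all genes (6 of the 10 and 1456 of all genes had an unadjusted p under 0.05). In the authors' deposited table these 2 genes had an adjusted p under 0.05 (Plin4 0.00458, Lipe 0.0350), against 1.10% of the genes of the authors' deposited table with an adjusted p.

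**Figure D2:**
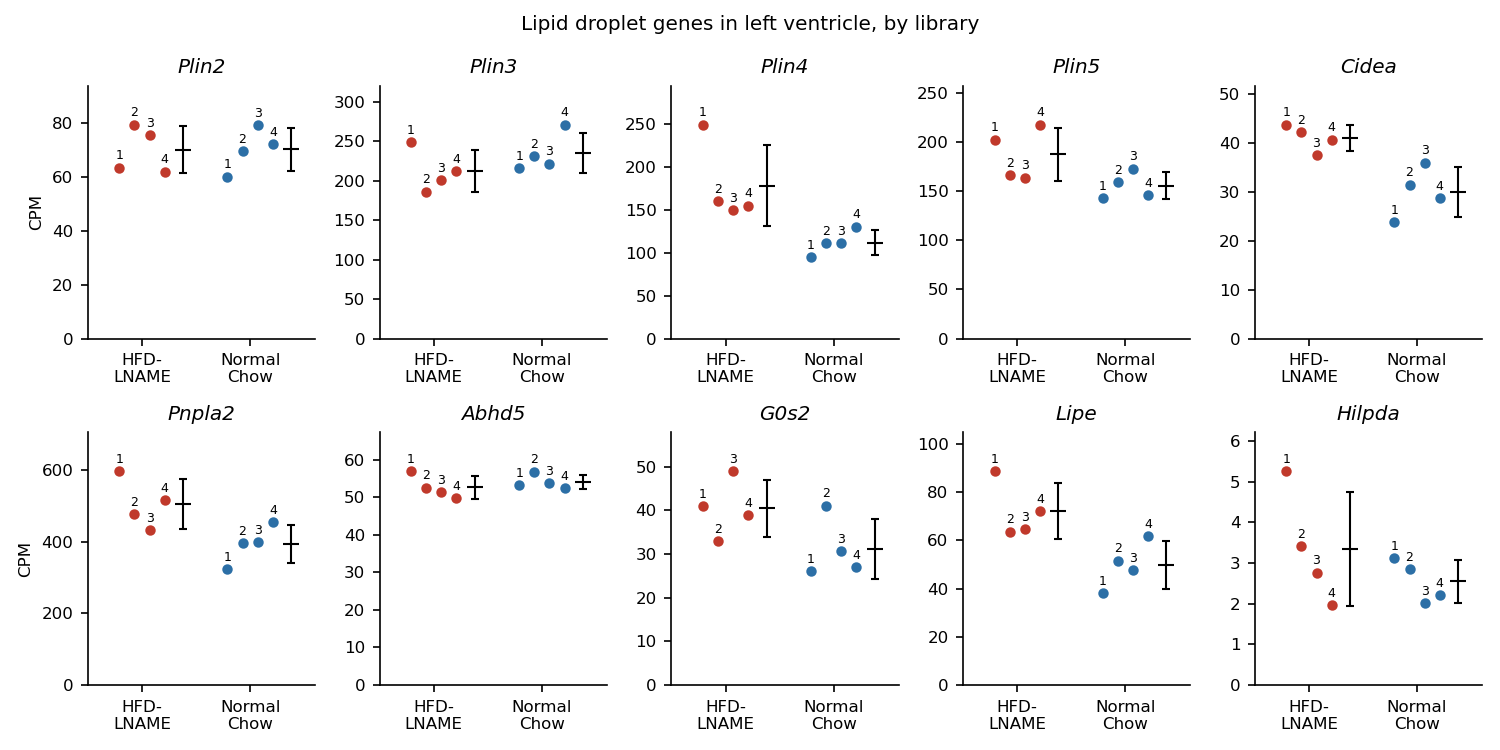
CPM of each lipid droplet gene in the 4 HFD-LNAME libraries (left) and the 4 Normal Chow libraries (right), numbered by replicate, with bars for mean ± SD of a group. Plin4, Lipe and Cidea have groups that do not overlap, and HFD-LNAME 1 is highest in 6 of the 10 genes. The share of all genes highest in that library was not counted.

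Among the coat proteins, Plin4 had the largest difference and Plin2 the smallest. Plin4, which coats small forming droplets and is abundant in white fat and muscle, was at 249, 160, 149 and 154 CPM in HFD-LNAME 1 to 4, against 94.4, 111, 111 and 130 CPM in Normal Chow 1 to 4. The groups did not overlap, and HFD-LNAME 1 stood far above the other 3. HFD-LNAME over Normal Chow, the log2 ratio was 0.67 ± 0.16 (SE, 95% interval 0.32 to 1.03, edgeR adjusted p = 0.233). Without HFD-LNAME 1 it was 0.47 ± 0.10 (edgeR adjusted p = 0.207). In the 3 libraries with little atrial RNA, a split chosen after seeing the data, it was 1.05, and edgeR called 1 of the 10 genes (Plin4), against 0.322% of all genes. That value rests on HFD-LNAME 1 as the lone HFD-LNAME library, the one in which Plin4 stood apart, and assumes that it varies like the others.

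Plin5, the perilipin of oxidative tissues that binds ATGL and ABHD5 and ties droplets to mitochondria, was at 203, 167, 164 and 218 CPM in HFD-LNAME 1 to 4, against 143, 160, 173 and 146 CPM in Normal Chow 1 to 4. HFD-LNAME 1 and 4 lay above every Normal Chow library, and HFD-LNAME 2 and 3 lay within the Normal Chow range. The log2 fold change was 0.27 ± 0.11 (SE, 95% interval 0.04 to 0.51, edgeR adjusted p = 0.460). Without HFD-LNAME 2 and 3, the libraries with the most adipocyte RNA, it was 0.44 ± 0.10 (edgeR adjusted p = 0.388).

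Plin2, the coat protein of droplets in most tissues, was at 63.2, 79.3, 75.4 and 61.8 CPM in HFD-LNAME 1 to 4, against 59.9, 69.5, 79.0 and 72.0 CPM in Normal Chow 1 to 4. The groups covered nearly the same range, and the interval of the log2 fold change ran from -0.24 to 0.23 around -0.0031. Plin3, a perilipin that moves between cytosol and new droplets, was at 249, 186, 201 and 212 CPM in HFD-LNAME 1 to 4, against 216, 231, 222 and 271 CPM in Normal Chow 1 to 4. These groups overlapped, and the log2 fold change was -0.15 ± 0.11 (SE, 95% interval -0.38 to 0.08, edgeR adjusted p = 0.697).

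Cidea, which joins droplets into larger ones and is best known from brown fat, was at 43.8, 42.2, 37.5 and 40.7 CPM in HFD-LNAME 1 to 4, against 23.8, 31.5, 36.0 and 28.7 CPM in Normal Chow 1 to 4. The HFD-LNAME libraries were close together and did not overlap with Normal Chow, of which library 3 came nearest. Its log2 fold change was 0.45 ± 0.12 (SE, 95% interval 0.19 to 0.72, edgeR adjusted p = 0.259). Cidec, a relative of Cidea from the same droplet-joining family and an adipocyte marker, was at 2.46, 6.85, 5.49 and 0.957 CPM in HFD-LNAME 1 to 4, against 1.17, 0.444, 0.550 and 0.127 CPM in Normal Chow 1 to 4.

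Of the lipases and their partners, edgeR called 0 of 5 (Pnpla2, Lipe and G0s2 had an unadjusted p under 0.05). Of all genes 0.0134% were called and 9.56% had such an unadjusted p. Among them Lipe had the largest log2 fold change (0.54) and Abhd5 the one nearest to 0 (-0.04). Pnpla2 was at 597, 476, 432 and 515 CPM in HFD-LNAME 1 to 4, against 324, 396, 399 and 454 CPM in Normal Chow 1 to 4. The groups overlapped only in that HFD-LNAME 3 lay below Normal Chow 4, and the log2 fold change was 0.36 ± 0.12 (SE, 95% interval 0.10 to 0.62, edgeR adjusted p = 0.368). Lipe was at 88.8, 63.6, 64.8 and 72.0 CPM in HFD-LNAME 1 to 4, against 37.96, 51.5, 47.6 and 61.8 CPM in Normal Chow 1 to 4. Lipe lies within another transcript gene, and reads of the 2 cannot be told apart without the strand. Its groups did not overlap, by a small margin between HFD-LNAME 2 and Normal Chow 4, and the log2 fold change was 0.54 ± 0.15 (SE, 95% interval 0.22 to 0.86, edgeR adjusted p = 0.265).

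Abhd5, the activator of ATGL, was at 56.96, 52.5, 51.3 and 49.8 CPM in HFD-LNAME 1 to 4, against 53.2, 56.8, 53.7 and 52.4 CPM in Normal Chow 1 to 4. It was the steadiest of the 10 genes, with a log2 fold change of -0.04 ± 0.07 and a 95% interval from -0.20 to 0.12 (edgeR). G0s2, an inhibitor of ATGL, was at 40.9, 33.0, 49.0 and 38.9 CPM in HFD-LNAME 1 to 4, against 26.0, 41.1, 30.7 and 26.97 CPM in Normal Chow 1 to 4. Normal Chow 2 lay above 3 of the HFD-LNAME libraries, and the log2 fold change was 0.37 ± 0.16 (SE, 95% interval 0.03 to 0.72, edgeR adjusted p = 0.480).

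Hilpda, a small inhibitor of ATGL that is induced by hypoxia and by fatty acids, had 184, 145, 91 and 72 counts in HFD-LNAME 1 to 4 and 166, 148, 84 and 104 counts in Normal Chow 1 to 4. This was 5.26, 3.41, 2.76 and 1.97 CPM in HFD-LNAME 1 to 4, against 3.12, 2.85, 2.01 and 2.20 CPM in Normal Chow 1 to 4. HFD-LNAME 1 (95% Poisson interval 4.53 to 6.08 CPM, counting error only) stood above every other library and HFD-LNAME 4 (1.54 to 2.48 CPM) was the lowest of all. The log2 fold change was 0.39 ± 0.31 (SE, edgeR adjusted p = 0.737), and without HFD-LNAME 1 it was 0.09 ± 0.30.

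**Figure D3:**
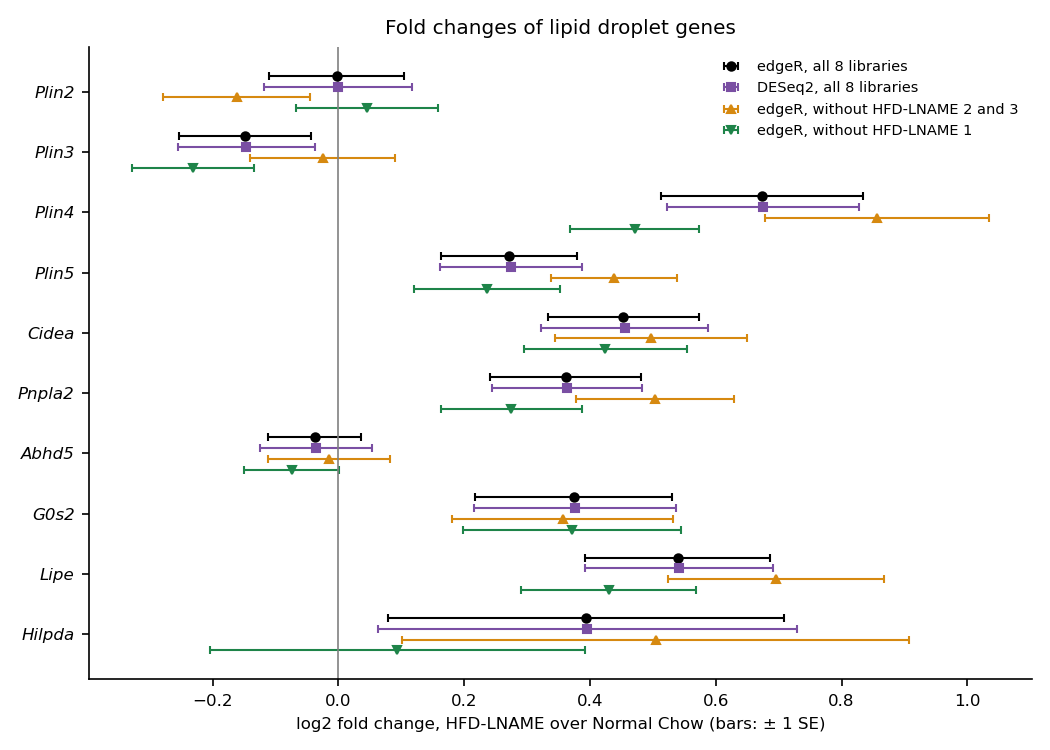
Log2 fold change of each gene, HFD-LNAME over Normal Chow, with bars of 1 SE, from edgeR and DESeq2 on all 8 libraries and from edgeR without HFD-LNAME 2 and 3 or without HFD-LNAME 1. Plin4 ranges from 0.47 to 0.86 over these 4 fits and Plin2 stays near 0 except without HFD-LNAME 2 and 3 (-0.16).

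Ratios of counts within a library set each lipase partner against the enzyme, free of scaling. Abhd5 counts per Pnpla2 count were 0.0954, 0.110, 0.119 and 0.0966 in HFD-LNAME 1 to 4, against 0.164, 0.144, 0.135 and 0.115 in Normal Chow 1 to 4. Normal Chow 4 lay within the HFD-LNAME range, and the mean log2 ratio differed by -0.40 (-3.25 ± 0.15 against -2.85 ± 0.21, SD, n = 4 each, two-sided exact permutation p = 0.0571, 0.171 adjusted over 3 ratios). Without Normal Chow 4, the library that overlaps, the difference was -0.49 and the groups no longer overlapped. The exact permutation p of 0.0286 is then the smallest that 4 against 3 libraries allow, and follows from leaving out that library. Without any other single library the exact permutation p was 0.0571 to 0.0857. G0s2 counts per Pnpla2 count were 0.0685, 0.0693, 0.113 and 0.0754 in HFD-LNAME 1 to 4, against 0.0802, 0.104, 0.0770 and 0.0594 in Normal Chow 1 to 4. The groups covered the same range, with a difference in mean log2 ratio of 0.02 (exact permutation p = 0.971, n = 4 each). Plin5 counts per Plin2 count were 3.21, 2.10, 2.17 and 3.53 in HFD-LNAME 1 to 4, against 2.39, 2.30, 2.19 and 2.03 in Normal Chow 1 to 4. HFD-LNAME 1 and 4 were above and HFD-LNAME 2 and 3 within the Normal Chow range, with a difference in mean log2 ratio of 0.27 (exact permutation p = 0.343, 0.514 adjusted, n = 4 each). It was 0.14 without HFD-LNAME 4 (exact permutation p = 0.629) and 0.60 without HFD-LNAME 2 and 3 (exact permutation p = 0.0667). The latter p is the smallest that 2 against 4 libraries allow. It follows from leaving out the HFD-LNAME libraries that lay within the Normal Chow range.

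**Figure D4:**
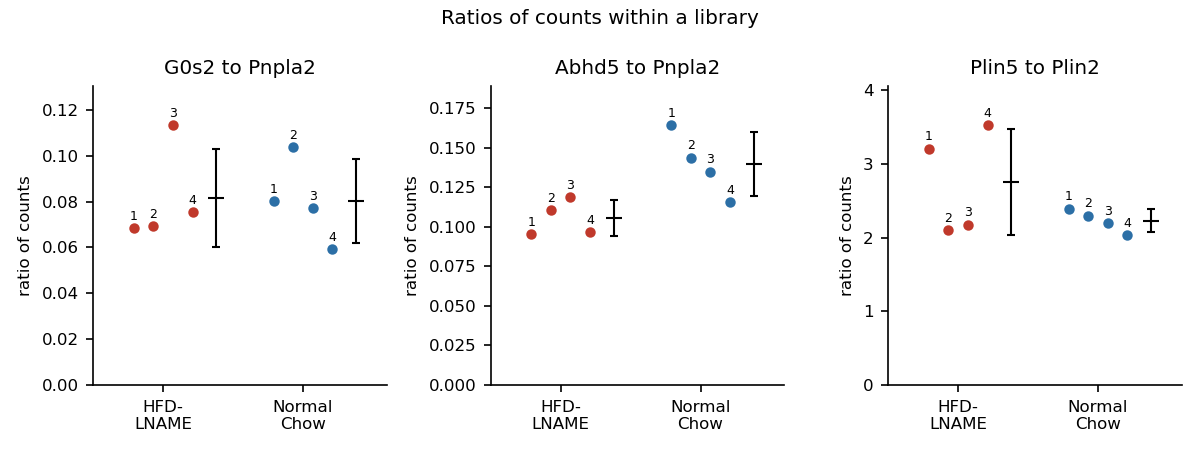
Ratios of counts within each library for G0s2 to Pnpla2, Abhd5 to Pnpla2 and Plin5 to Plin2, HFD-LNAME left and Normal Chow right, numbered by replicate, with bars for mean ± SD. Abhd5 per Pnpla2 lies at 0.0954 to 0.119 in HFD-LNAME and 0.115 to 0.164 in Normal Chow libraries.

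The libraries with the most adipocyte RNA were not those with the highest levels of most of the 10 genes. In 8 of the 10, HFD-LNAME 1 lay above HFD-LNAME 2 and 3, where the adipocyte sum was largest, and in 6 it was the highest library of all. Normal Chow 1, which had the most adipocyte RNA of its group, was the lowest library of all in 7 of the 10. How many of all genes show these orders was not counted, so they are a description only. The cardiomyocyte marker sum was highest of its group in HFD-LNAME 1 (101618 CPM) and lowest of its group in Normal Chow 1 (92154 CPM). Lipe counts per Plin1 count were 55.4, 5.29, 7.42 and 28.0 in HFD-LNAME 1 to 4, against 17.9, 116, 64.2 and 133 in Normal Chow 1 to 4, and each of the 10 genes varied at least 20.2-fold against Plin1. By comparison, counts per Plin1 count varied 5.63-fold for the adipocyte gene Cidec, 8.25-fold for Adipoq and 13.3-fold for Cfd. Plin1 itself ranged from 0.444 to 12.0 CPM, so a steady gene also varies widely against it. Abhd5, the steadiest of the 10, varied 29.3-fold. A part of the RNA of these genes coming from fat was not tested.

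Correlations over the 8 libraries were computed with the adipocyte and the cardiomyocyte marker sums, and their permutations ignored the groups. The adipocyte sum was higher in HFD-LNAME libraries, so likeness to it cannot be told apart from a difference between the groups. Pearson's r of log2 CPM with the adipocyte marker sum ran from -0.78 (Plin3) to 0.50 (Cidea), and 0 of the 10 passed a Benjamini-Hochberg adjustment over the 10 (lowest exact permutation p after adjustment 0.235). Cidea had r = 0.50 (exact permutation p = 0.208), Spearman's rho = 0.74 (exact permutation p = 0.0458) and r = 0.34 without HFD-LNAME 2 and 3, the libraries farthest from the median. Plin4 had r = 0.43 (exact permutation p = 0.294), rho = 0.67 (exact permutation p = 0.0831) and r = 0.49 without these 2 libraries. Lipe had r = 0.31 (exact permutation p = 0.451), rho = 0.55 (exact permutation p = 0.171) and r = 0.31 without these 2 libraries. Plin3 had r = -0.78 (exact permutation p = 0.0235), rho = -0.76 (exact permutation p = 0.0368) and r = -0.42 without the 2 libraries. Plin2 had r = 0.19 (exact permutation p = 0.627), rho = 0.24 (exact permutation p = 0.582) and r = -0.81 without them, so its weak positive value rests on HFD-LNAME 2 and 3. Against the cardiomyocyte marker sum, Plin3 had r = 0.89 (exact permutation p = 0.00350, 0.0350 adjusted over the 10), rho = 0.95 (exact permutation p = 0.00114) and r = 0.96 without HFD-LNAME 2 and 3. The other 9 genes had r between -0.40 and 0.44 with that sum and did not pass. CPM values of a library share 1 total, of which the cardiomyocyte markers are a large share.

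**Figure D5:**
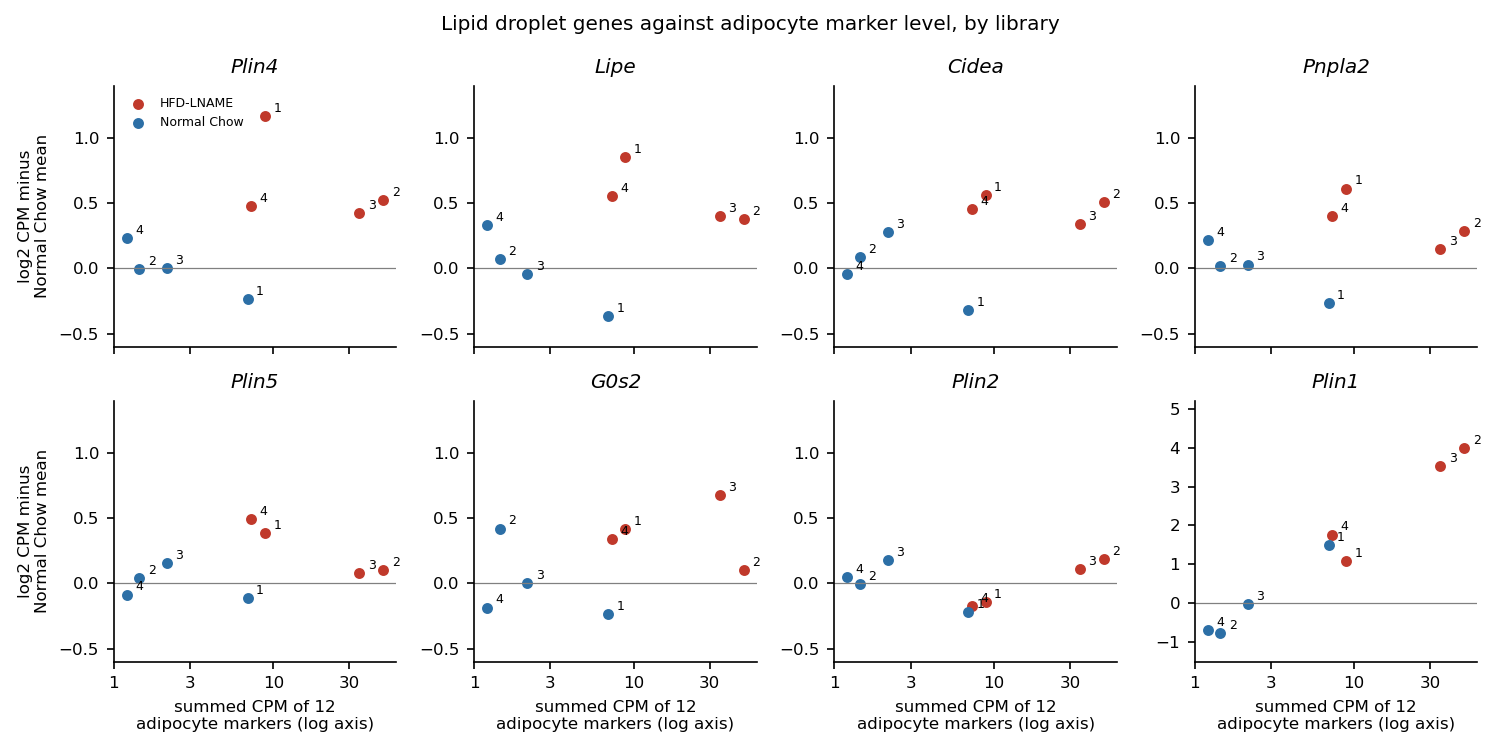
Log2 CPM minus the Normal Chow mean for 7 lipid droplet genes and for Plin1, against the summed CPM of 12 adipocyte markers on a log axis, 1 numbered point per library. Plin1, itself one of the 12 markers, has its own scale, and Plin4, Lipe and Pnpla2 are highest in HFD-LNAME 1, where the sum is 8.86 CPM.

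Without HFD-LNAME 2 and 3 the log2 fold change was 0.86 ± 0.18 for Plin4, 0.70 ± 0.17 for Lipe, 0.50 ± 0.13 for Pnpla2 and 0.50 ± 0.15 for Cidea (SE, edgeR), and 0 of the 10 passed with edgeR. In that fit 5 of the 10 had an unadjusted p under 0.05, against 7.70% of all genes. The adipocyte level was still higher by 1.41 on the log2 scale in HFD-LNAME without these libraries (exact permutation p = 0.133, 2 against 4 libraries), and its part in the differences was not tested. Among the 5 libraries with Myl7 above 200 CPM, a split chosen after seeing the data, the log2 fold changes were 0.59 ± 0.11 for Plin4, 0.65 ± 0.13 for Lipe, 0.43 ± 0.16 for Cidea and 0.40 ± 0.13 for Pnpla2, and 0 passed with edgeR. In that split 5 of the 10 had an unadjusted p under 0.05, against 8.21% of all genes. Macrophages and endothelial cells also hold droplets. The 5 measured macrophage markers summed to 99.7 to 148 CPM in HFD-LNAME and 76.9 to 149 CPM in Normal Chow libraries, and the 5 endothelial markers to 534 to 667 and 460 to 581 CPM. Their part in the results was not tested.

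Genes most alike each member over the 8 libraries were sought among 9759 named genes of at least 5 CPM, by Pearson's r of log2(CPM + 0.5). For Cidea they were Mfge8 (r = 0.99), the slow myosin gene Myh7 (r = 0.99) and Acadl, a dehydrogenase of long-chain fatty acid oxidation (r = 0.97). For Pnpla2 they were Fbxo21 (r = 0.98), Acadvl, the very-long-chain acyl-CoA dehydrogenase gene (r = 0.96), and Arhgef6 (r = 0.96). Plin4 was most like Slc39a14, a zinc and iron transporter gene (r = 0.99), Pkp4 (r = 0.99) and Klf10 (r = 0.98), and Lipe most like Fosb (r = 0.96), Ppp1r2 (r = 0.96) and Arhgef6 (r = 0.95). Plin5 was most like Tmem201 (r = 0.99), Oxsr1 (r = 0.98) and 2810004N23Rik (r = 0.96), and G0s2 most like Lrrc8c (r = 0.99), Dennd2a (r = 0.95) and Arhgef15 (r = 0.95). Plin2 was most like Lrp11 (r = 0.97), Pfkl (r = 0.94) and Arfgap3 (r = 0.93), and Plin3 most like Pla2g12a, Psmc4 and Ppil1 (r = 0.97 each). Abhd5 was most like Alas1 (r = 0.96), Ppm1k (r = 0.95) and Rad50 (r = 0.94), and Hilpda most like Nr2c2 (r = 0.95), Tet2 (r = 0.95) and Erbin (r = 0.94). These are the highest of 9759 values over 8 libraries and are given as a description. Every one of the 12 adipocyte markers averaged under 5 CPM and so was not searched.

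The wider pathway was described from 3 lists. Of all genes tested, edgeR called 0.0134%, 9.56% had an unadjusted p under 0.05, and in 5.98% the groups did not overlap. Of 13 triglyceride synthesis genes 10 were tested, and edgeR called 0 (2 had an unadjusted p under 0.05, median log2 fold change 0.05). Agpat3, an acyltransferase gene of phosphatidic acid synthesis, averaged 324 ± 7.75 CPM in HFD-LNAME and 250 ± 25.1 CPM in Normal Chow libraries (SD, n = 4 each), a difference of 0.37 ± 0.08 on the log2 scale (edgeR adjusted p = 0.227). Gpam, the mitochondrial acyltransferase that starts the pathway, averaged 404 ± 4.26 CPM in HFD-LNAME and 348 ± 47.9 CPM in Normal Chow libraries (log2 fold change 0.22 ± 0.10). The groups did not overlap in Agpat3 or Gpam. Dgat2, an enzyme of the last step, had a log2 fold change of 0.33 ± 0.27 and was highest in HFD-LNAME 1 (592 CPM), and Lpin2, a phosphatidate phosphatase gene, had 0.27 ± 0.20.

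Of 14 other droplet proteins all 14 were tested, and edgeR called 0 (4 had an unadjusted p under 0.05, 3 higher and 1 lower, median 0.04). Of all genes 0.0134% were called and 9.56% had such an unadjusted p. Hsd17b11, a dehydrogenase found on droplets, averaged 57.4 ± 3.31 CPM in HFD-LNAME and 40.5 ± 8.78 CPM in Normal Chow libraries (SD, n = 4 each). Its log2 fold change was 0.50 ± 0.14 (edgeR adjusted p = 0.265). Tmem159, the partner of seipin at sites where droplets form, averaged 24.3 ± 2.53 CPM in HFD-LNAME and 32.1 ± 1.72 CPM in Normal Chow libraries (log2 fold change -0.40 ± 0.10, edgeR adjusted p = 0.234). In these 2 genes the groups did not overlap, as in 5.98% of all genes. The adipocyte markers Plin1 and Cidec had log2 fold changes of 2.71 ± 0.68 and 2.77 ± 0.68 (edgeR adjusted p = 0.246 and 0.237) with overlapping groups. Of 12 other lipases 10 were tested and edgeR called 0, with 0 at an unadjusted p under 0.05 and a median of 0.01. The cholesterol ester hydrolase gene Nceh1 had a log2 fold change of 0.25 ± 0.13, the monoglyceride lipase gene Mgll 0.18 ± 0.11, Pnpla6 0.20 ± 0.13 and the carboxylesterase gene Ces1d -0.12 ± 0.12.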

How the data were processed

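Left ventricle RNA of the 8 libraries was sequenced from total RNA with the Illumina TruSeq kit, per the labels' protocols. The authors deposited raw counts per gene. The submitters' processing notes list DESeq2 1.22.1, STAR 2.6, Trim Galore 0.4.0 and bcl2fastq 1.8.4. A human build stands there too, whereas genes carry IDs of the C57BL/6NJ mouse annotation, so no coordinates of genes in the files are given. For the counting step and its strand setting the sources used here give nothing. In RefSeq, Lipe lies wholly within the transcript gene 4732471J01Rik, and Plin2, Plin4 and Cidea overlap Gm12551, Hdgfl2 and B430212C06Rik in part, so reads there could be shared. The authors also deposited log2 fold changes, a test score, p-values and adjusted p-values per gene, and gene names were taken from that table. Its 8 columns of normalised values were not used.

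Columns were matched to samples by the number in the titles. Replicate numbers follow accession order and pair nothing. The test on counts was edgeR's quasi-likelihood test (edgeR 4.0.16, R 4.3.3, TMM factors, no covariate, filterByExpr at a minimum of 10 counts, p-values adjusted after Benjamini and Hochberg over 14875 genes, threshold 0.05, two-sided). CPM use TMM-scaled totals. Each SE was taken from the fold change and its F statistic. Single values were compared with two-sided exact permutation tests over 70 arrangements. Alternatives were DESeq2 1.42.0, limma-voom (limma 3.58.1), other scalings and filters, marker covariates, thinning and leaving out libraries. The fits were also run on simulated counts, and the share of changes they recovered is not given here. Named genes were the 10 members, the 4 tested genes with the smallest p in each pathway list, and the 3 genes most alike each member. Members and lists were chosen with earlier results of these data known. Of the listed genes, Actn2, Lyz2, Gpat3 and Mogat2 had no named row.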

Additional observations from a re-analysis of the deposited data

Results flagged for a closer look

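In 28 groups of 4 libraries examined for a library far from the others (Dixon's criterion at 95%), 3 were found, where chance alone gives about 1 in 20. Plin4 stood at 249 CPM in HFD-LNAME 1, against 149 to 160 CPM in the other 3 HFD-LNAME libraries. The ratio of G0s2 to Pnpla2 counts was 0.113 in HFD-LNAME 3, against 0.0685 to 0.0754 in the other 3. The summed adipocyte marker level was 6.92 CPM in Normal Chow 1, against 1.21 to 2.15 CPM in the other 3 Normal Chow libraries.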

How the results depend on the processing

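Over the 20 alternative settings, 192 of 200 member fold changes kept their direction, and 3 passed the threshold: Plin4 and Lipe with DESeq2 (log2 fold changes 0.68 and 0.54, adjusted p = 0.00470 and 0.0374) and Plin4 in the libraries with Myl7 under 200 CPM, where HFD-LNAME 1 is the lone HFD-LNAME library. Those with the other sign were Plin2 with library totals alone (0.0115), Plin2 with Myl7 above 200 CPM (0.0579), Plin3 with the adipocyte marker level as a covariate (0.14) and Abhd5 with Myl7 under 200 CPM (0.0598). Leaving out single libraries, Plin2 ranged from -0.071 to 0.0596, with the other sign without HFD-LNAME 1 (0.05), HFD-LNAME 4 (0.05), Normal Chow 3 (0.0596) and Normal Chow 4 (0.01). The cause was not tested. The adipocyte level follows the groups, so in the fit with it as covariate the treatment and fat cannot be told apart. In that fit Plin4 had 1.09, Lipe 1.03 and Pnpla2 0.74, with 0 of the 10 past the threshold.

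Of all genes edgeR called 2, DESeq2 161, limma-voom 0, edgeR with no filter 34, with at least 10 counts in every library 1, with the adipocyte covariate 0, after thinning 1, without HFD-LNAME 2 and 3 0, with Myl7 above 200 CPM 0 and with Myl7 under 200 CPM 52. Of the 10 members the counts were 0 with edgeR, 2 with DESeq2 and 1 with Myl7 under 200 CPM. Leaving out single libraries gave 0 to 3 genes (0 without HFD-LNAME 2 or 4 or Normal Chow 1, 2 or 4, 1 without HFD-LNAME 1) and 0 members each time. The difference in the G0s2 to Pnpla2 ratio ranged from -0.15 to 0.16 without single libraries (below 0 without HFD-LNAME 3 or Normal Chow 4) and was -0.13 without HFD-LNAME 2 and 3. That in the Abhd5 to Pnpla2 ratio ranged from -0.49 to -0.32, that in the Plin5 to Plin2 ratio from 0.14 to 0.39, and that in the adipocyte marker level from 2.07 to 2.93, with 1.41 without HFD-LNAME 2 and 3 (exact permutation p = 0.133). With 3 against 4 libraries the p of the adipocyte level was 0.0286 to 0.0571. No paired analysis was possible because the labels give no replicate numbers. Depth limits Hilpda most, with 72 to 184 counts per library.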
